A study of Mus musculus with 6 samples.

Results

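Regions of open chromatin that lie in gene deserts were followed through 6 ATAC-seq peak lists of mouse osteoblasts. A desert region was a merged peak region on chromosomes 1 to 19 that lay more than 100 kb from the span of every protein-coding RefSeq gene of GRCm38.p6. Peaks of the 6 lists were merged where they shared 1 bp or more, and 6900 of the 87268 merged regions on these chromosomes, 7.91%, met the rule. The rule used position only, so that the presence, rank and width of the peaks were not used to choose the regions. Of the desert regions, 6865 lay between 2 protein-coding genes and 35 beyond the first or last gene of a chromosome.

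The libraries were ATAC-seq libraries, in which the Tn5 transposase cuts and tags accessible DNA. Each was made from 50000 cells with 30 min of transposition at 37 °C. The 3 control libraries were of OB Fam20c f/f, a purchased immortalized mouse osteoblast line with both Fam20c alleles floxed. The 3 knockout libraries were of OB Fam20c KO, Fam20c-deficient osteoblasts made from the same line with a lentivirus that carries Cre recombinase, so that both groups carried the floxed background and the knockout was 1 derived line. Nothing in the sources says that replicates came from separate cultures, and the p-values below measure only the spread between these libraries.

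Gene deserts are long stretches of the genome without protein-coding genes. They hold long noncoding RNA genes, miRNA clusters and distal enhancers, and many of them flank genes for transcription factors, signalling ligands and cell adhesion molecules whose expression is tightly controlled in development. An enhancer in a desert can act over a long distance on a promoter at the edge, and a peak by itself does not say which gene it acts on. The comparison of the groups asked whether loss of Fam20c, the Golgi kinase of secreted proteins, went with peaks gained or lost in these stretches.

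The sequences that follow are from RefSeq, with positions in GRCm38.p6. Among 101 miRNA hairpins in deserts, 9 overlapped a desert region, and all 9 were hairpins of the Mir344 family on chromosome 7. Their 5p arms are shown because most share a seed (bases 2 to 8, in capitals), and the miR-344d-2 arm is the one shown with another seed.
mmu-miR-344c-5p: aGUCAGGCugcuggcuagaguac
mmu-miR-344-5p: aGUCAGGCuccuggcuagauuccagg
mmu-miR-344b-5p: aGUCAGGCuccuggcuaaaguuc
mmu-miR-344g-5p: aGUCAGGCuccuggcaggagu
mmu-miR-344d-1-5p: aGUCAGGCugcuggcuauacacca
mmu-miR-344d-3-5p: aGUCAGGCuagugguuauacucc
mmu-miR-344d-2-5p: aGUCUGGUugcuggcuauauucca
The seed GUCAGGC was shared by 6 of these mature miRNAs. Below are mature miRNAs of hairpins with a desert region within 5 kb, shown because they are well-known miRNAs of desert clusters, again with the seed in capitals.
mmu-miR-29a-3p: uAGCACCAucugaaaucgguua
mmu-miR-29b-3p: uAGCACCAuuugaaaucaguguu
mmu-miR-125b-5p: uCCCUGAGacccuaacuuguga
mmu-miR-99a-5p: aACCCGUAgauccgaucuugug
mmu-let-7c-5p: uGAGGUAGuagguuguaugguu
The miR-29 family members share the seed AGCACCA.

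Promoters of noncoding genes lay in some desert regions, and 4 are shown because each stands for another pattern of presence. The windows hold 300 bases, 250 before and 50 after the start, in the direction of the gene, and capitals mark the AP-1 motif TGANTCA, which Morrbid and Gm36481 hold and the other windows do not. Morrbid had a peak in all 6 libraries, Gm36481 in KO replicates 1 and 2, Gm38450 in the 3 KO libraries and 9530059O14Rik in the 3 f/f libraries.
Morrbid, chr2:128429302-128429601, minus strand: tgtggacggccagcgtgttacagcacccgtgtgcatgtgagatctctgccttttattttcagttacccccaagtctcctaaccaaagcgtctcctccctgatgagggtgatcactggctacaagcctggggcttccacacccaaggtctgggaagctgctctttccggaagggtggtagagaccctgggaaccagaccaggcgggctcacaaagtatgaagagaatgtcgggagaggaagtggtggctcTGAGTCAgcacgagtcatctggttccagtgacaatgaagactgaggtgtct
Gm36481, chr5:111707487-111707786, plus strand: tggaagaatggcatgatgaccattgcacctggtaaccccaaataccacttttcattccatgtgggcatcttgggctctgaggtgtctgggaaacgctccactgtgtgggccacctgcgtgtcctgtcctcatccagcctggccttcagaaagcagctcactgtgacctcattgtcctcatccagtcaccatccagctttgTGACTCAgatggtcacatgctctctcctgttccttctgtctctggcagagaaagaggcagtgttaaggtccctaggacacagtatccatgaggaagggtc
Gm38450, chr4:23260534-23260833, plus strand: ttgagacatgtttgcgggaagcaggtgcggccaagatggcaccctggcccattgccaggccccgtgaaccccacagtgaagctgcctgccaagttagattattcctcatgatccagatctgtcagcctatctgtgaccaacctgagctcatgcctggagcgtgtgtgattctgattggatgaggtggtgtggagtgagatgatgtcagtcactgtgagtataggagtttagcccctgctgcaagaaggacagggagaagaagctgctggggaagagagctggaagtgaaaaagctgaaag
9530059O14Rik, chr9:122572251-122572550, plus strand: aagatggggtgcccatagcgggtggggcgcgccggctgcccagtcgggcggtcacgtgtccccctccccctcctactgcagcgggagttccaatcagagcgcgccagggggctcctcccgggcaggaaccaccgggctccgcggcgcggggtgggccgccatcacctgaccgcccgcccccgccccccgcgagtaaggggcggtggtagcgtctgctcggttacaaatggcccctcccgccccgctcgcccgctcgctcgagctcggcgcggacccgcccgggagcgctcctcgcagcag

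Before the results, the libraries themselves differed. The lists held between 32958 and 74797 peaks, and KO replicate 3 had the shortest list, with the next shortest at 62781. Peaks were near 6 of 8 osteoblast markers in every library, with Bglap and Ibsp at 0 peaks. Of the markers of other cells, Tyrobp and Epcam had 0 peaks in every library, blood and osteoclast markers had a peak at 0 to 4 of 5 genes per library, endothelial markers at 3 to 4 of 4, epithelial markers at 2 of 3, neuronal markers at 3 of 3 and muscle markers at 2 of 2 except for 0 in KO replicate 3. Their part in the results was not tested. Fam20c had 1 or 2 peaks in each library of both groups, so that peaks do not check the deletion.

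Deserts took up 680 Mb, 28.0% of the 2430 Mb between the first and last protein-coding genes. They held 10.1 regions per Mb against 45.9 per Mb in the rest. There were 1393 such stretches, and 971 of them held at least 1 desert region while 422 held 0. A desert with any held a median of 4, and the fullest held 120. The 149 fullest deserts held 3437 regions, 50.1% of those between genes. Length alone did not fill a desert, since 69 of the 407 deserts of 500 kb or more held 0. The median distance of a desert region from a protein-coding gene was 195 kb, and the farthest lay 2120 kb away, between Cntnap5b and Cdh20 on chromosome 1.

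Desert peaks were a small and similar share of each list. The share of peaks on chromosomes 1 to 19 that lay in deserts was 6.44%, 6.56% and 7.01% in f/f replicates 1 to 3. In KO replicates 1 to 3 it was 6.74%, 7.06% and 5.62%. The groups overlapped, with KO replicate 3 lowest and KO replicate 2 highest. The means were 6.67% ± 0.303 (SD, n = 3) for f/f and 6.47% ± 0.756 (SD, n = 3) for KO, a difference of -0.196 percentage points (exact permutation test over 20 assignments, two-sided, p = 0.9). The number of desert regions with a peak was 3938, 3981 and 5095 in f/f and 4112, 4386 and 1773 in KO, and the groups overlapped here too (exact permutation test, p = 0.6). With 3 libraries against 3 this test cannot give a p below 0.1.

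The share was also taken over lists of equal length. The length used was that of the whole list of KO replicate 3 on chromosomes 1 to 19, so that only the other lists were cut. When the 32145 highest peaks on chromosomes 1 to 19 were taken from each list, the share was 4.89%, 4.78% and 4.82% in the f/f libraries. It was 4.97%, 5.35% and 5.63% in the KO libraries, so that the groups did not overlap and the difference turned to 0.484 percentage points (exact permutation test, p = 0.1, the smallest it allows). In KO replicate 3, 386 of these desert peaks lay on chromosome 15, against 147 to 158 in the other libraries. Without that chromosome, a setting chosen after seeing the data, its share was 4.86% and the difference 0.289 percentage points (exact permutation test, p = 0.1). Without KO replicate 3, and with whole lists, the difference was 0.23 percentage points (exact permutation test, p = 0.4). The sign of the group difference in the share thus changed with the number of peaks taken and with that library. Desert peaks ranked lower in each list, as given below, so that the cut lowered the share in the other lists. It left KO replicate 3 whole, at 5.62% before and 5.63% after. The sign at equal length is therefore not read as a group difference.

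Desert regions were found in fewer libraries than other regions. A peak was present at 57.1%, 57.7% and 73.8% of desert regions in f/f replicates 1 to 3, and at 70.1%, 69.9% and 83.5% of the other regions. In KO replicates 1 to 3 the values were 59.6%, 63.6% and 25.7% for desert regions and 70.4%, 71.4% and 36.6% for the others. Desert presence was lower in 6 of 6 libraries, by a mean of 10.7 percentage points (exact sign-flip permutation test over 6 libraries, two-sided, p = 0.03125, the smallest it allows, and the same after Benjamini-Hochberg adjustment over 3 such tests). The gap itself was -11.6 ± 1.73 percentage points in f/f and -9.83 ± 1.75 in KO (SD, n = 3 each), and the difference between the groups in it had p = 0.3 by the exact permutation test, adjusted p = 0.75 over 5 tests of this kind.

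Desert peaks also ranked lower and were narrower. Standing is the percentile of a peak by its −log10 q among the peaks of its own list on chromosomes 1 to 19, with 100 the highest. The median standing of desert peaks was 39.2, 37.4 and 37.9 in the f/f libraries and 38.3, 38.5 and 31.6 in the KO libraries, against 50.9 to 51.2 for other peaks. The mean gap was -13.8 percentile points, in the same direction in 6 of 6 libraries (exact sign-flip permutation test, p = 0.03125). KO replicate 3 stood apart with a gap of -19.7. Median widths of desert peaks were 453, 524 and 530 bp in f/f and 429, 474 and 395 bp in KO. Other peaks had medians of 553 to 664 bp, and the mean gap was -136 bp (exact sign-flip permutation test, p = 0.03125, lower in 6 of 6 libraries). Group differences in the standing gap and in the width gap both had p = 0.6 by the exact permutation test, adjusted p = 0.75.

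**Figure D1:**
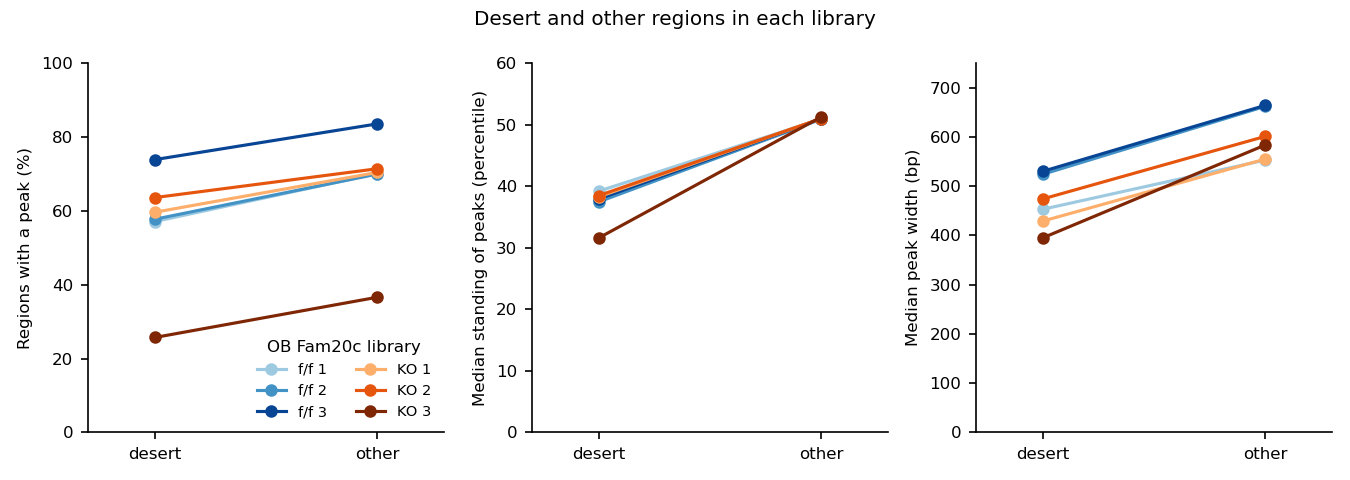
Percent of regions with a peak (left), median standing of peaks by −log10 q within the list (middle, percentile) and median peak width (right, bp) for desert and other regions, with 1 line for each of the 3 OB Fam20c f/f (blue) and 3 OB Fam20c KO (orange to brown) libraries. All 6 lines rise from desert to other in each panel, and KO replicate 3 has the lowest presence, 25.7% of desert regions.

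Presence fell with distance from protein-coding genes. Regions inside or touching a gene had a peak in all 6 libraries in 39.3% of cases, and the share was 24.1% at 50 to 100 kb, 21.5% at 100 to 250 kb, 18.02% at 250 to 500 kb and 14.1% beyond 500 kb. The share seen in 1 library rose from 18.04% inside genes to 40.2% beyond 500 kb. Beyond 500 kb there were 757 regions, and KO replicate 3 alone accounted for 107 of them. That library departed from the others there, with a peak at 24.0% of regions at 250 to 500 kb and at 30.8% beyond 500 kb, while in the other 5 libraries presence was lower beyond 500 kb than at 250 to 500 kb. Near the 100 kb limit itself the regions were mixed. The 3 nearest inside it lay 100028, 100032 and 100034 bp from a gene and had a peak in 2, 6 and 1 libraries, and the 3 nearest outside lay at 99987, 99983 and 99968 bp with a peak in 6, 1 and 5.

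**Figure D2:**
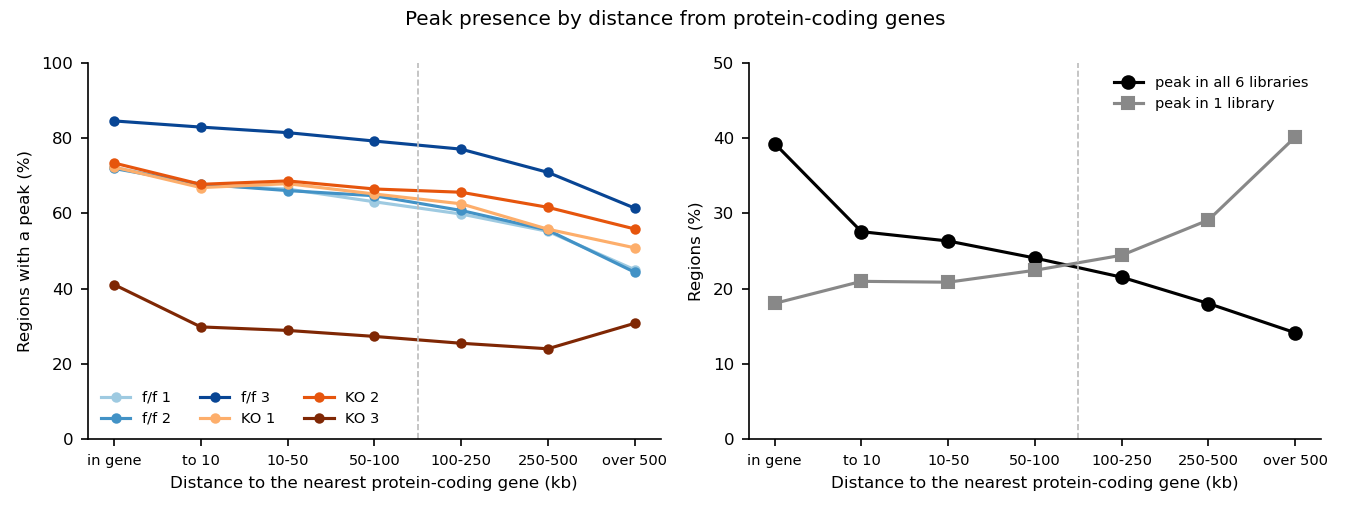
Percent of regions with a peak in each library (left) and percent with a peak in all 6 libraries or in 1 library (right) by distance to the nearest protein-coding gene in kb. Desert regions lie to the right of the dashed line, where the share in all 6 libraries falls from 21.5% to 14.1% and the share in 1 library rises from 24.4% to 40.2%.

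Group-specific presence was rare in deserts as elsewhere. A peak in 3 of 3 f/f and 0 of 3 KO libraries was called f/f-only, and 340 desert regions were, 4.93%, against 3.78% of all regions. The reverse, KO-only, held for 19 desert regions, 0.275%, against 0.173% of all regions. Exact binomial intervals at 95% were 4.43% to 5.46% and 0.166% to 0.43%, and cover counting error only. A peak in all 6 libraries was found at 1369 desert regions, 19.8%, against 33.4% of all regions. A further 1268 desert regions, 18.4%, lacked a peak in KO replicate 3 alone, close to the 19.3% of other regions.

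The KO-only count changed with KO replicate 3. Without that library 341 desert regions of 6638 were KO-only, 5.14%, against 2.89% of all regions. The f/f-only count was then 343, 5.17%, against 3.86% of all regions, so that the KO-only and f/f-only counts were close once that library was left out. A library left out of either group also relaxes the rule for that group. With KO replicate 3 kept and lists of equal length, 114 of 2636 desert regions were KO-only and 107 f/f-only. Shares over all regions were not taken at this length, so that these counts are not read as particular to deserts. All regions were put in 4 equal classes by mean standing, and the shares were taken within each. In the lowest class 4.39% of desert regions and 4.12% of others had a peak in KO replicates 1 and 2 only, and f/f-only shares were 2.99% and 2.495%. In the second-lowest class 8.02% of desert regions and 4.78% of others had a peak in KO replicates 1 and 2 only, while f/f-only shares were 9.03% and 8.35%. In the next class the shares were 3.02% against 1.36% and 4.30% against 3.91%. The gap between desert and other regions was thus larger for KO replicates 1 and 2 only in the middle classes and smaller in the lowest. The highest class held 856 desert regions and 20961 others. There 5 desert regions were f/f-only, 0.584%, against 44 others, 0.21%. In KO replicates 1 and 2 only there was 1 desert region, 0.117%, against 1 other, 0.00477%, so that these shares rest on few regions. In this class 87.3% of desert regions and 92.4% of others had a peak in all 6 libraries.

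Part of the f/f-only regions sat in 3 stretches where KO peaks were few. They were chromosome 13 as a whole, 90 to 105 Mb of chromosome 4 and 20 to 40 Mb of chromosome 16, and had been singled out with earlier results of these data known. There 99 of 744 desert regions were f/f-only, 13.3%, against 11.5% of all 5928 regions in these stretches. Outside them 241 of 6156 were, 3.91%, against 3.22% of all regions outside. The stretch of chromosome 4 was the clearest. Its 149 desert regions had a peak in 51.7%, 81.2% and 62.4% of cases in f/f replicates 1 to 3 and in 12.1%, 10.7% and 3.36% in KO replicates 1 to 3. The groups did not overlap, which follows from the choice of the stretch for its few KO peaks. At the other regions of the stretch they did not overlap either. Presence there was 57.6%, 67.1% and 77.6% in f/f replicates 1 to 3 and 18.2%, 19.1% and 7.58% in KO replicates 1 to 3. Of the desert regions of the stretch 39, 26.2%, were f/f-only. Of the other regions of the same stretch 25.3% were f/f-only, so that the share in deserts was close to that of the stretch as a whole.

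Nfia, a nuclear factor I transcription factor, stood at the edge of the plainest case, and was picked after its values were seen. The deserts on both of its sides held 25 regions, of which 16, 17 and 15 had a peak in f/f replicates 1 to 3 and 0 in each KO library. Of these regions, 10 were f/f-only. On the same stretch, the desert between Izumo3 and Tusc1 held 26 regions with 13, 21 and 19 peaks in f/f and 1, 2 and 0 in KO. Between Tusc1 and Caap1 there were 35 regions, with 15, 32 and 19 in f/f and 5, 5 and 2 in KO. The desert beside Jun, the AP-1 subunit, held 27 regions with 15, 20 and 23 in f/f and 9, 6 and 3 in KO.

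The 5 f/f-only regions of highest standing all lay on chromosome 4. At chr4:91595621-91596816, 195513 bp from Elavl2, which encodes an RNA-binding protein of neurons, the −log10 q was 75.5, 62.2 and 123 in f/f replicates 1 to 3, with no peak in KO. At chr4:90860830-90861472, on the other side of Elavl2, it was 55.4, 54.1 and 129. The next ones were chr4:97380652-97382035 and chr4:97236677-97237470, 196031 and 340596 bp from Nfia, and chr4:94006921-94008014 between Tusc1 and Caap1. Their mean standing ran from 63.6 to 78.1, so that these were middling to strong peaks of the f/f lists. They were chosen for high standing and do not stand for the f/f-only regions at large. From the lowest to the highest class of mean standing, f/f-only desert regions numbered 64, 197, 74 and 5.

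KO-only regions were spread over several chromosomes. The highest, chr4:23260429-23261309, overlapped the promoter of the lncRNA gene Gm38450 shown above and lay 772063 bp from Pou3f2, a POU-domain transcription factor of neural cells. Its −log10 q was 90.4, 122 and 12.8 in KO replicates 1 to 3. At chr5:80700844-80701401, 317684 bp from Adgrl3, an adhesion receptor, it was 64.7, 108 and 14.5. At chr17:84081806-84082388, 101536 bp from Zfp36l2, which encodes an mRNA decay factor, it was 56.2, 63.2 and 12.8. The other 2 of the 5 highest were chr15:90784551-90785182, beside Cpne8, and chr10:114973046-114973866, between Trhde and Tph2. In each of the 5 KO replicate 3 had the lowest value.

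The desert with the most regions in KO replicates 1 and 2 only, picked after its values were seen, lay between Epha7, an ephrin receptor, and Map3k7, the TAK1 kinase. It held 39 regions with 16, 15 and 20 peaks in f/f and 28, 33 and 11 in KO. On the other side of Epha7, the desert from Manea held 18 regions with 4, 2 and 9 in f/f and 11, 13 and 4 in KO. KO replicates 1 and 2 lay above the 3 f/f libraries in both deserts, and KO replicate 3 below or among them. Between Mc2r and Tcf4, which encodes a helix-loop-helix factor, 19 regions held 9, 9 and 12 peaks in f/f and 12, 17 and 3 in KO. These deserts were all picked from those with the most regions in KO replicates 1 and 2 only. High counts in these 2 libraries thus follow in part from the choice, and how many deserts show such an order was not counted.

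Chromosome 15 held more desert regions than any other chromosome. It had 1119, 16.2% of all desert regions, at 32.6 per Mb of desert, while the other chromosomes ran from 5.45 to 14.7 per Mb. Many were weak and seen once. A peak in 1 library was found at 51.2% of desert regions of chromosome 15 against 22.7% on the other chromosomes, and a peak in all 6 at 12.96% against 21.2%. Other regions of chromosome 15 showed the same in part, with 32.3% in 1 library against 17.98% elsewhere.

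KO replicate 3 was the most uneven library here. Of its 1773 desert regions with a peak, 382 lay on chromosome 15, 21.5%, against 9.93% to 12.6% in the other libraries. It had 262 desert regions to itself, and 198 of them were on chromosome 15 and 25 on chromosome 5. Those on chromosome 15 had a median −log10 q of 2.89, a median width of 260 bp and a median distance of 436 kb from a protein-coding gene. On that chromosome its desert peaks had a median standing of 9.31. Without chromosome 15, its presence at desert regions was 24.1% against 36.8% at other regions, and the desert share of its list was 4.85%, the lowest of the 6.

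The deserts with the most regions of KO replicate 3 alone were on chromosome 15. Between Cdh6 and Cdh9, which encode type II cadherins, 47 regions lay in a desert of 3352 kb. The numbers with a peak were 4, 8 and 7 in f/f replicates 1 to 3 and 13, 6 and 25 in KO replicates 1 to 3, and 25 of the regions were of KO replicate 3 alone. Between Kcnv1 and Csmd3, the latter a large membrane protein gene, 41 regions had 4, 8 and 5 peaks in f/f and 5, 5 and 29 in KO, with 26 of KO replicate 3 alone. These deserts had 0 and 3 regions with a peak in all 6 libraries. They were picked after their values were seen.

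The deserts were ranked by regions per Mb among the 125 of 500 kb or more with at least 10 regions. The densest lay between Mn1, a transcriptional coregulator needed for skull bones and palate, and Cryba4, a lens crystallin gene, with 56 regions in 589.5 kb at chr5:111557031-112146491. Its regions with a peak numbered 37, 34 and 43 in f/f replicates 1 to 3 and 43, 36 and 17 in KO replicates 1 to 3. Apart from KO replicate 3 the groups overlapped, and 17 regions had a peak in all 6. Between Sntb1 and Has2, the hyaluronan synthase gene, 43 regions gave 77.0 per Mb, with 19, 26 and 26 peaks in f/f and 23, 23 and 10 in KO.

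Myc, the growth-controlling transcription factor gene, was flanked by dense deserts on both sides. The desert from Myc to Gsdmc, a gasdermin gene, was the fullest of all, with 120 regions in 1586 kb at chr15:62090362-63675970, 75.7 per Mb. It held 63, 60 and 89 regions with a peak in f/f and 65, 72 and 33 in KO, and 27 had a peak in all 6. The desert from A1bg to Myc held 45 regions, 52.1 per Mb, with 19, 24 and 25 in f/f and 25, 28 and 13 in KO. In both, the first 2 KO libraries were within or just above the f/f range. Regions were unevenly placed past Myc, with 40 between 100 and 300 kb from its end, 20 between 300 and 500 kb and 5 between 500 and 700 kb. Of the 40 nearest, 4 had a peak in all 6 libraries, whereas 4 of the 5 at 500 to 700 kb did. Pvt1, the long noncoding RNA gene next to Myc, covered 34 of the desert regions, and 2 of these had a peak in all 6.

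**Figure D3:**
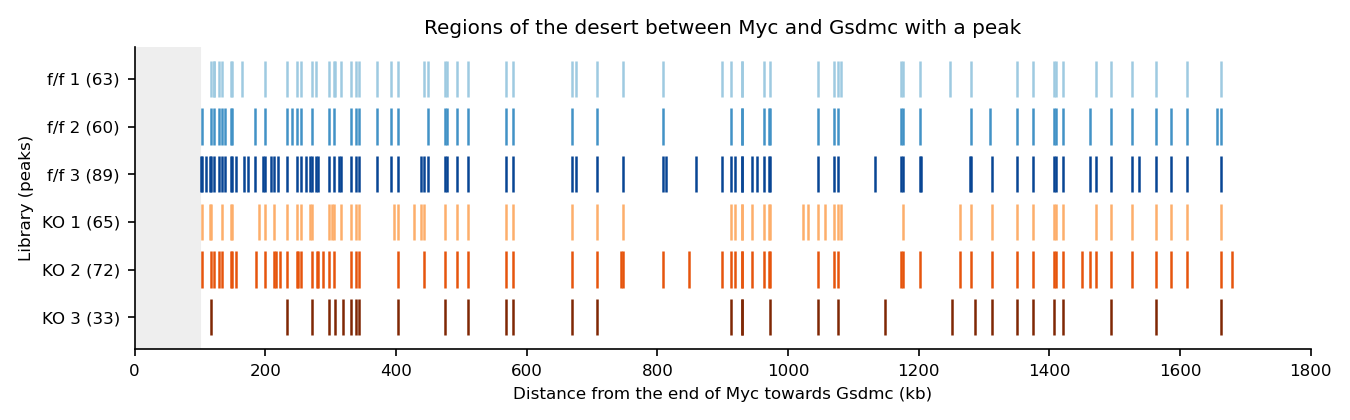
Positions of the desert regions with a peak between Myc and Gsdmc in each library, as the distance in kb from the end of Myc, with the number of regions in brackets and the excluded first 100 kb in grey. KO replicate 3 has 33 regions and 4 of the 40 between 100 and 300 kb, where f/f replicate 3 has 29.

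The remaining dense deserts differed in how the groups stood to each other. Rasgrp1 to Thbs1, the thrombospondin-1 gene, held 38 regions with 30, 27 and 32 in f/f and 25, 29 and 10 in KO. Ptger4, the gene of the prostaglandin E2 receptor EP4, to Dab2, an endocytic adaptor gene, held 54. They had 22, 25 and 30 in f/f and 19, 20 and 18 in KO. Here each KO library lay below each f/f library, and 9 of the regions had a peak in KO replicate 3 alone. How many deserts separate the groups in this way was not counted. From Ubash3b to Gm40514 there were 33, with 26, 25 and 28 in f/f and 27, 29 and 15 in KO. Runx1, a runt-domain transcription factor gene, to Setd4 held 30, with 20, 19 and 23 in f/f and 25, 25 and 12 in KO, with KO replicates 1 and 2 above the f/f libraries and replicate 3 below them. St3gal1 to Zfat held 36, of which 0 had a peak in all 6. Trps1, the GATA-type repressor mutated in a human skeletal syndrome, to Eif3h held 34, with 12, 13 and 18 in f/f and 15, 15 and 10 in KO. Of the 10 densest, 6 are on chromosome 15. Regions with a peak in KO replicate 3 alone were then left out, a step chosen after seeing the data. Ptger4 to Dab2 fell to 52.6 per Mb and Trps1 to Eif3h to 38.8. Mn1 to Cryba4, Rasgrp1 to Thbs1, Ubash3b to Gm40514 and Runx1 to Setd4 lost 0 regions.

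Among the 5 fullest deserts were 2 that were not among the 10 densest. Cdh18 to Basp1 held 65 regions at 38.6 per Mb, with 17, 26 and 24 in f/f and 31, 26 and 27 in KO. Csmd3 to Trps1 held 52 at 31.3 per Mb. Leaving out regions of KO replicate 3 alone, an alternative chosen after seeing the data, these 2 deserts held 48 and 36. That gave 28.5 and 21.7 per Mb. The longest deserts were nearly empty. Pcdh20 to Pcdh9, between protocadherin genes, ran 4342 kb with 5 regions, Celf4 to Pik3c3 4311 kb with 3, Olfm4 to Pcdh17 4220 kb with 4, Cntnap5b to Cdh20 4078 kb with 3, and Tenm3 to Aga 3789 kb with 0. One of the 4 between Olfm4 and Pcdh17, at chr14:82065094-82065986, lay 2041953 bp from a gene and still had a peak in all 6 libraries, with a mean standing of 83.0. The other 4 of the 5 farthest regions each had a peak in 1 library.

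**Figure D4:**
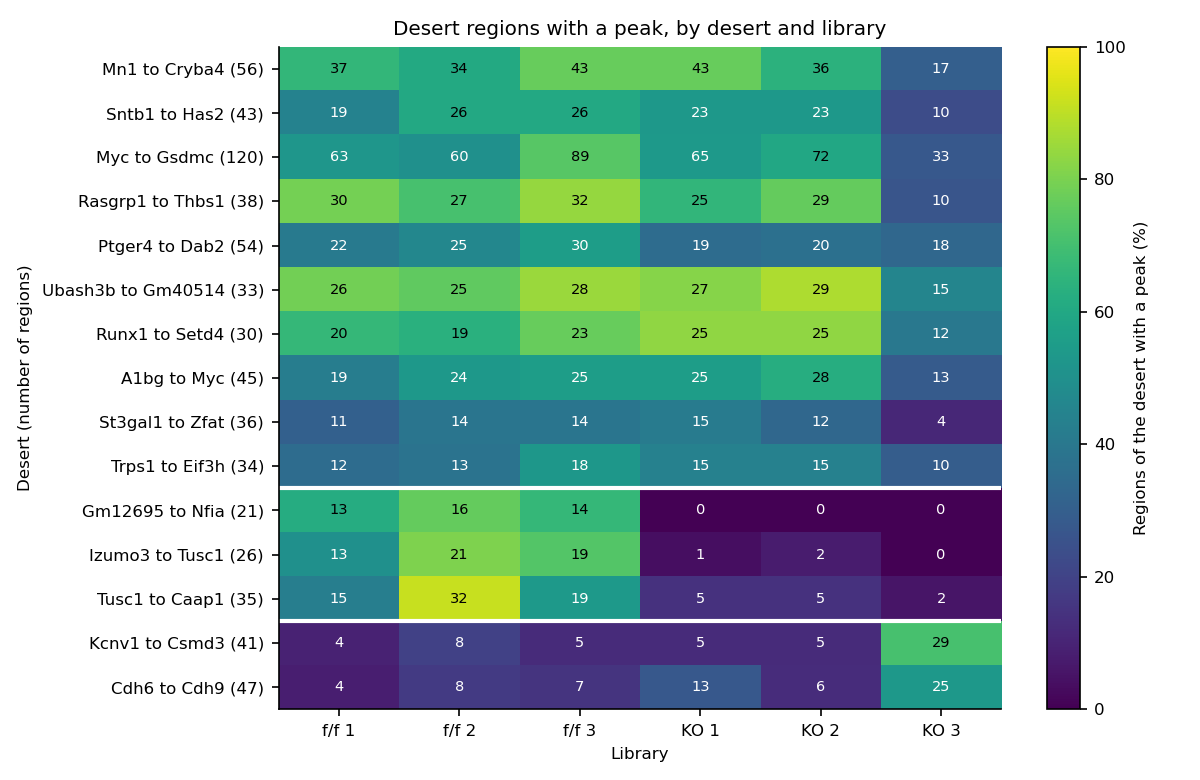
Number of desert regions with a peak (in each cell) and their percent of the regions of that desert (colour) by library, for the 10 densest deserts (top), 3 with the most f/f-only regions (middle) and 2 with the most regions of KO replicate 3 alone (bottom). The f/f libraries have 13 to 32 regions with a peak in the middle rows against 0 to 5 in the KO libraries, and KO replicate 3 has 29 and 25 in the bottom rows.

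Lists of gene families were set beside these deserts. Of 123 transcription factor genes of skeleton, limb and face, 73 flanked a desert with at least 1 region, with a median of 8 regions per gene. Of 84 secreted growth factors and their antagonists 36 did, with a median of 6, and of 79 cadherin, protocadherin and synaptic adhesion genes 54 did, with a median of 5. Among all 20661 protein-coding genes 1735, 8.40%, did, with a median of 4. The lists were drawn up with deserts in mind, and nothing particular to them is read from these counts. Genes with 20 or more regions numbered 12, 4 and 9 in the lists and 170 in all.

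The transcription factor genes with the most regions were Zeb2, a zinc-finger repressor gene, with 40, Klf4 with 39, Sox9, the master regulator of cartilage, with 38, Runx1 with 30 and Jun with 27. At Sox9 the regions with a peak numbered 28, 26 and 32 in f/f and 21, 22 and 10 in KO, the f/f libraries being higher than the KO libraries. At Zeb2 they were 23, 28 and 34 in f/f and 30, 35 and 14 in KO, and the groups overlapped. At Klf4 they were 31, 28 and 38 against 26, 25 and 12, with f/f higher. The number of genes beside deserts that separate the groups in this way was not counted. Nothing particular to Sox9 or Klf4 is read from these counts.

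Among secreted factors the bone morphogenetic protein genes Bmp2 and Bmp4 had 25 and 21 regions. At Bmp2 the counts were 15, 14 and 21 in f/f and 14, 19 and 5 in KO. At Bmp4 they were 18, 15 and 18 in f/f and 15, 16 and 5 in KO. Cxcl12, a chemokine gene of stromal cells, had 24, Dkk2, a Wnt antagonist gene, 22, and Tgfb2 and Slit2 14 each. Leaving out KO replicate 3, the groups overlapped at both Bmp genes. Among adhesion genes the leaders were Csmd3 with 93, Cdh18 with 80, Cdh9 with 69, Epha7 with 57 and Cdh6 with 47. All but Epha7 lie on chromosome 15. These counts changed with KO replicate 3, an alternative chosen after seeing the data. Leaving out regions with a peak in that library alone, Csmd3 had 51, Cdh18 58, Cdh9 33, Epha7 52 and Cdh6 22, so that Cdh18 came first and Epha7 next. At the named transcription factor genes the same step took away 1 region at most, and at the named secreted factor genes 2 at most.

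Desert regions were gathered into clusters, though less than other regions. With gaps of at most 20 kb, 3174 desert regions, 46.0%, formed 653 clusters of 3 or more, and 2240, 32.5%, stood alone. Of other regions 81.1% were in such clusters. Clustered desert regions had a peak in all 6 libraries in 24.2% of cases and those alone in 15.04%. The largest cluster held 49 regions over 244 kb next to Myc. The next were 26 regions between Opa1 and Hes1, a Notch target gene, 20 between Klf14 and Mkln1, 20 between Haao and Zfp36l2 and 18 each beside Mn1 and between St3gal1 and Zfat. Of the cluster between Opa1 and Hes1, 14, 15 and 24 had a peak in f/f and 12, 12 and 7 in KO. It lies on the chromosome 16 stretch where KO peaks were few. All regions of that stretch had a peak in 63.8%, 68.1% and 83.7% of cases in f/f and 42.2%, 43.2% and 21.7% in KO. Nothing particular to this cluster is read from its counts.

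A few desert regions were among the strongest peaks of the lists. Desert peaks made up 4.63%, 5.05% and 3.97% of the highest 1% of each list in f/f and 4.15%, 3.65% and 10.2% in KO, against 1.37% to 2.55% of the highest 5%. At chr2:98666550-98667321, between Lrrc4c and Iftap, the mean −log10 q was 15390. The others of the 5 highest were chr9:3023419-3024662, chr9:3000118-3001527 and chr9:3006382-3007320, all before Alkbh8, the first protein-coding gene of chromosome 9, and chr12:3109872-3110115, before Rab10. Their −log10 q in KO replicate 3, the shortest list, was 18150, 10690, 6487, 3226 and 3596, within or above the range of the other libraries, whereas the median over its desert peaks, 8.46, was the lowest of the 6. No list of regions with artefactual signal was used here, and how reads with several matches were treated is not given in the sources used here.

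Strong desert peaks beside genes are given for 4 regions picked after their values were seen. At chr15:59822681-59823922, 165582 bp from Trib1, a pseudokinase gene, the −log10 q was 392, 485 and 678 in f/f and 482, 629 and 141 in KO. At chr15:62568829-62570252, 578468 bp from Myc, it was 277, 328 and 527 in f/f and 536, 710 and 127 in KO. At chr16:29915184-29915985, 149372 bp from Hes1, it was 440, 458 and 634 in f/f and 363, 499 and 73.5 in KO. At chr5:111799345-111800701, 342315 bp from Mn1, it was 197, 289 and 384 in f/f and 342, 445 and 90.9 in KO. These values were not scaled between libraries and are not compared between groups. The standing of these 4 regions was 93.9 or more in every list.

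The widest desert region, chr17:39843117-39846736 with 3620 bp, overlapped the annotated noncoding locus Rn18s-rs5. The next was 3026 bp at chr8:26688294-26691319, 286017 bp from Zfp703, over the lncRNA gene Gm32098. The others were 2514 bp at chr2:166446439-166448952 over the lncRNA gene 5031425F14Rik, 2407 bp at chr10:56782149-56784555 beyond Gja1, the connexin 43 gene, and 2406 bp at chr5:101111523-101113928 beyond Gpat3. All 5 had a peak in all 6 libraries, and apart from the region over Rn18s-rs5 their mean standing was 38.9 to 81.5.

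Most desert regions overlapped no annotated gene of another kind. No noncoding RNA gene or pseudogene was overlapped by 5420 regions, 78.6%, while 1417, 20.5%, overlapped a lncRNA gene, 51 a pseudogene and 9 a miRNA gene. Of those over lncRNA genes 23.1% had a peak in all 6 libraries, against 19.004% of those over none of these. After Pvt1, the lncRNA genes with the most regions were Mir100hg with 19, of which 9 had a peak in all 6, and Morrbid with 17, of which 6 did. Snhg14, the long transcript of the imprinted Snrpn locus, had 15 and showed 4, 8 and 5 with a peak in f/f and 8, 7 and 13 in KO, with KO replicate 3 highest. Gm12648, on the chromosome 4 stretch, had 9, with 6, 8 and 7 in f/f and 0 in each KO library. These genes were named after their values were seen.

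The Mir344 array on chromosome 7 was the miRNA locus with peaks over hairpins. It lies in a desert of 1035 kb before Ndn, the imprinted necdin gene, and its 13 hairpins in RefSeq span 402 kb. Desert regions overlapped 9 of them, 1 region each, and 6 of these regions had a peak in all 6 libraries. The strongest was chr7:61837033-61837835, over Mir344c, with a −log10 q of 123, 115 and 210 in f/f and 195, 256 and 32.8 in KO. Its standing was 85.95 to 90.3 in 5 libraries and 72.9 in KO replicate 3. At Mir344b, chr7:61789952-61790984, the standing was 67.6, 78.6 and 83.2 in f/f and 75.3, 78.2 and 49.9 in KO. At Mir344d-1, the first hairpin of the array, it was 19.6 and 17.0 in f/f replicates 2 and 3 and 37.0 and 53.3 in KO replicates 1 and 2, with no peak in the other 2 libraries.

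Median standing over the hairpins was 63.9, 60.8 and 74.7 in f/f and 75.3, 78.2 and 62.3 in KO, and the groups overlapped. Numbers of hairpin regions with a peak were 8, 9 and 8 in f/f and 9, 9 and 6 in KO. These hairpins are similar copies, so that reads may not tell them apart. Mir344e, Mir344f, Mir344h-1 and Mir344h-2 of the same array overlapped no region. In comparison, 135 of 818 hairpins outside deserts overlapped a region, 16.5%, against 8.91% in deserts.

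**Figure D5:**
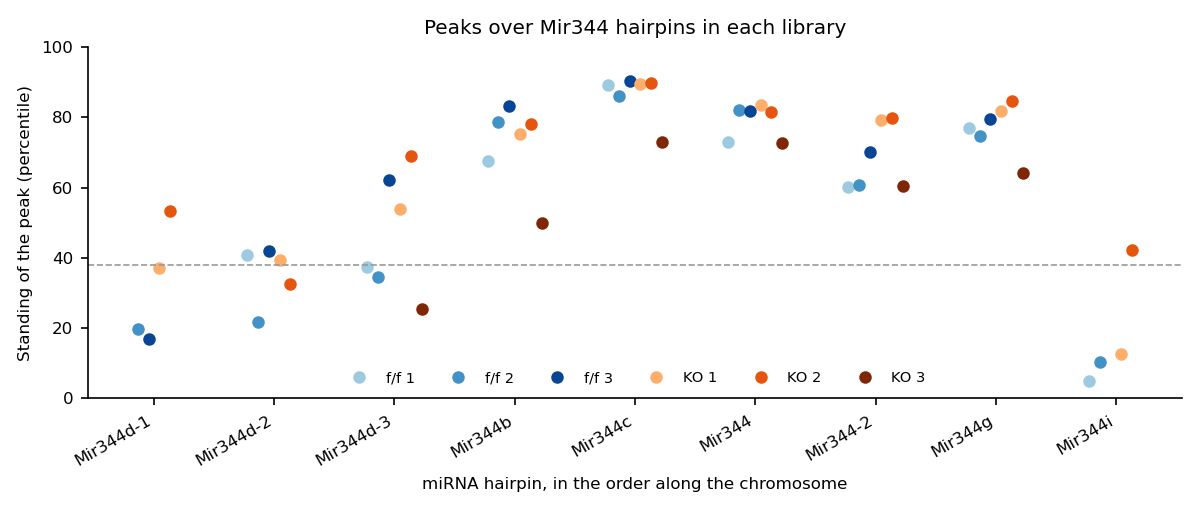
Standing (percentile by −log10 q within the own list) of the peak over each of 9 Mir344 hairpins in each library, with no point where a library had no peak and the median over libraries of desert peaks as the dashed line. The 5 hairpins from Mir344b to Mir344g lie above the line in all 6 libraries, and Mir344c is highest.

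Other miRNA hairpins had desert regions close by. A desert region with a peak in all 6 libraries lay 376 bp from Mir125b-1, inside Mir100hg, with a standing of 61.4, 67.1 and 67.9 in f/f and 67.8, 59.6 and 19.8 in KO. The region 160 bp from Mir29a and 523 bp from Mir29b-1 had a peak in 5 libraries and none in KO replicate 3. Its standing was 34.9, 49.5 and 46.8 in f/f and 17.8 and 26.7 in KO replicates 1 and 2, lower in these KO libraries than in the 3 f/f libraries. The number of desert regions with such an order was not counted, and nothing particular to this region is read from it. The region 2737 bp from the hairpin of let-7c-1 and 3487 bp from that of miR-99a had a peak in the 3 f/f libraries and KO replicate 1, with a standing of 46.7, 51.9, 49.7 and 37.0, and none in KO replicates 2 and 3. This region, at chr16:77602487-77603116, lies outside the stretch of chromosome 16 where KO peaks were few.

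Of 2014 promoter windows of RefSeq in deserts, 1856 overlapped no region. Desert regions covered at least 250 bases of 98 windows of 90 genes, several of which overlap one another. The AP-1 motif TGANTCA, which is its own reverse complement, was in 26 of the 98, 26.5%. It was in 9.43% of desert windows without a region, in 5.88% of windows covered by other regions and in 7.84% of all 31396 windows. Windows in desert regions had a median GC content of 50.0%, against 62.3% in other regions and 44.3% in deserts without a region. Below 50% GC the AP-1 shares were 34.0%, 14.8% and 9.76%, and from 50% up 19.6%, 5.06% and 8.18%, so that the order of desert regions above the other windows was kept in both classes. The share was 18.5% of 54 windows with a peak in all 6 libraries and 36.4% of 44 windows with fewer.

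The RUNX motif TGTGGT, read on both strands as ACCACA too, was in 22.4% of windows in desert regions, 12.04% in other regions, 19.8% in deserts without a region and 16.7% of all. The TCF/LEF motif CTTTGAT, or ATCAAAG on the other strand, was in 6.12%, 2.24%, 6.41% and 3.76%. None of the 3 motif strings contains another. A match describes the letters of the window and not binding of a factor.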

How the data were processed

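The lists of 6 ATAC-seq libraries were used, 3 labelled f/f and 3 labelled KO. By the study's methods and the submitters' processing notes, Trimmomatic served for trimming, BWA for alignment to mm10 and MACS2 2.1.2 for peaks, with a q-value limit of 0.05 and 1 deposited list for each library. How duplicate and multiply matching reads were treated is not given in the sources used here. For each peak the deposited list gives a score, the fold at the summit over the background, the −log10 p and −log10 q, and the summit's distance from the start. For their own group comparison the authors ran DESeq2. Read counts were not used here, so that the groups were compared by presence, and read totals, which the study gives, were not used here. A missing peak did not pass the authors' threshold and need not be closed chromatin. Columns of no sample numbered 0.

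Peaks were merged where they shared 1 bp or more. Distances were to spans of 20661 protein-coding RefSeq genes of GRCm38.p6, whose coordinates are those of mm10. A desert is the stretch between neighbouring gene spans with 100 kb taken off either end. Standing by −log10 q was ranked within a list. Groups were compared by exact permutation over 20 assignments, and desert with other peaks by exact sign flips over the 6 libraries (64 patterns). Regions are not replicates and got no test. The score and the fold were not tested, and the fold ranked peaks in 1 alternative. Motifs were searched in RefSeq promoter windows. Genes near peaks were counted within 3 kb of the span for the marker check.

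The desert regions, gene lists and stretches were chosen with earlier results of these data known. Named by rule were the flanking genes of the 10 densest deserts of 500 kb or more with 10 or more regions, of the 5 fullest and of the 5 longest, the 5 highest, widest and farthest regions, the regions of highest standing seen in 1 group only, 5 from each group, the 5 genes of each list with the most regions and the 3 regions on either side of the limit. Other loci are named as picked later. Alternatives were a minimum −log10 q of 5, lists of equal length, limits of 50 and 200 kb, distance from every RefSeq gene, other merging rules, other linking gaps, at least 2 of 3 libraries, standing by fold, the 3 stretches left out, each library left out and the replicate number as a block. Leaving out chromosome 15, or the regions of KO replicate 3 alone, was chosen after seeing the data. The procedure was tested on simulated lists. Software was Python 3.11.15 with scipy 1.17.1, pandas 2.3.3, matplotlib 3.10.9 and numpy 2.4.6.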

Additional observations from a re-analysis of the deposited data

How the results depend on the processing

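Of 101 recomputed values, 58 kept their direction and stayed within the limits set for them. The lower presence, standing and width of desert peaks kept their direction under every alternative run. They lost p = 0.03125 by exact sign flips only where 1 library was left out, since 5 libraries cannot give a p below 0.0625. The differences then ran from -11.03 to -8.869 percentage points, from -14.27 to -12.69 percentile points and from -142.8 to -125 bp.

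The group difference in the desert share of peaks turned to 0.4843 percentage points with the same number of peaks per list and to 0.2888 with chromosome 15 left out as well, a setting chosen after seeing the data, both at p = 0.1 by exact permutation. Equal length kept the whole list of KO replicate 3 and cut the others, so that these signs are not read as a group difference. With each library left out it ran from -0.4903 to 0.23, the last without KO replicate 3. The replicate number as a block left it at -0.1961 (exact sign flips over 3 pairs, p = 1). Same-numbered libraries did not deviate together, with correlations of 0.0531, -0.0252 and 0.00234, so that the numbers do not pair the libraries.

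Counts changed with the setting. The 340 f/f-only desert regions became 107 with equal lists, 556 at 50 kb, 172 at 200 kb, 66 at 100 kb from every RefSeq gene and 717 with at least 2 of 3 libraries, and 343 to 522 with a library left out, highest without f/f replicate 1. The 19 KO-only regions became 8 at a −log10 q of 5 or more, 114 with equal lists, 9 at 200 kb, 5 from every RefSeq gene and 357 with at least 2 of 3, and 21 to 341 with a library left out, highest without KO replicate 3, at 43 without f/f replicate 3 and at 30 without KO replicate 1. The 6900 desert regions became 2636 with equal lists, 11632 at 50 kb, 3318 at 200 kb and 1006 from every RefSeq gene. Since the total moved with several settings, the counts above are not read as changes in how specific regions were to a group. Among these settings, shares over all regions were set beside the counts only without KO replicate 3. The share in clusters, 46.0%, became 40.33% at a −log10 q of 5 or more, 22.46% with equal lists, 27.14% at a 10 kb gap and 70.96% at 50 kb.

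Read totals were not used here. Why the list of KO replicate 3 was the shortest was not tested. Intervals cover counting error only. The cause of the changes between settings was not tested.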
